A study of Mus musculus with 4 samples.

Results

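Radial glia are the elongated progenitors that line the ventricles of the embryonic brain, and 9 transcripts of their cytoskeleton, surface and matrix (Nes, Vim, Fabp7, Slc1a3, Prom1, Ttyh1, Hopx, Tnc and Ptprz1) were followed in mouse brain RNA-seq. They were taken by gene name from the deposited tables, where all 9 were listed in both, among 19500 genes listed in both and 22414 listed in either. All 9 had enough counts to be tested, out of 15933 genes tested. The series compared embryonic day 13 brain of C57BL/6 background animals that carried floxed Wt1 alleles (labelled WT; Wt1fl/fl) with brain of animals labelled Wt1CKO, a conditional knockout of the zinc finger factor gene Wt1. Each genotype had 2 samples, numbered 1 and 2, and each of the 2 deposited tables set the samples of one number side by side. The labels do not name the Cre driver, the part of the brain, or what the number stands for. They also do not say whether a sample was 1 animal or a pool, and a p-value here reflects the scatter among these samples alone, which may be technical. Wt1 was not analysed here, and the genotypes are taken from the labels without a check of that transcript.

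A radial glial cell spans the wall of the neural tube. Its apical end faces the ventricle, where cells divide, and its long basal fibre reaches the pial surface and guides newborn neurons. The fibre is built on intermediate filaments of nestin and vimentin, the membrane carries glutamate transporters, prominin and receptor phosphatases, and the cells secrete and bind matrix proteins such as tenascin C. These transcripts are also used as markers, but Nes and Vim are made by vessel and mesenchymal cells too, and Tnc by connective tissue.

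The libraries held 16219310 to 17704698 counts each. Wt1CKO number 1 had 4 counts of Xist, the RNA of the inactive X of females, against 13086 to 16472 in the other libraries. Wt1fl/fl number 1 had 74251 counts of the ribosomal RNA gene CT010467.1, against 3058 to 7902 in the others. Both libraries together make up number 1, so every comparison between the numbers and every difference within number 1 rests on them. A fit without 1 of them still holds the other. Some results are also given without 1 of them, but none without both.

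The sequences around the transcript starts of 4 of the genes are shown because Nes and Tnc moved in opposite directions between the sample numbers, Ptprz1 encodes a receptor that binds tenascin C, and Fabp7 had the highest level per length. They are RefSeq windows on GRCm38.p6, 250 bases before to 50 bases after the start nearest to the gene's start in the deposited tables, 5′ to 3′. Capitals mark matches, on either strand, to any of the 5 motifs searched. The TATA box was searched as TATAAA. The core site of RBPJ, the Notch effector, was searched as TGGGAA. The octamer of POU factors was searched as ATGCAAAT. For SOX factors the letters were ACAATG. For the GC-rich site of Wt1 and EGR factors they were GCGNGGGCG.
Nes (chr3:87970843-87971142, plus strand): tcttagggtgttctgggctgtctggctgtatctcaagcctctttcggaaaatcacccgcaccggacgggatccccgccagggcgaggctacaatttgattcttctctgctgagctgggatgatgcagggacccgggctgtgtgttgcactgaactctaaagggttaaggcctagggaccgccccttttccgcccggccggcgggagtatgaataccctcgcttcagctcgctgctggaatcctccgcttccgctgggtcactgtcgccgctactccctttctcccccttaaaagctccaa
Fabp7 (chr10:57784673-57784972, plus strand): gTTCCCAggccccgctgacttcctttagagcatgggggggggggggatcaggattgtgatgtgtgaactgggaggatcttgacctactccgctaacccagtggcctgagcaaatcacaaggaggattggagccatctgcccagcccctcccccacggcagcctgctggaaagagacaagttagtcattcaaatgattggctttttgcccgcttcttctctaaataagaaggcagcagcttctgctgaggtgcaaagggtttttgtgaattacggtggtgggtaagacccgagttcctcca
Tnc (chr4:64046966-64047265, minus strand): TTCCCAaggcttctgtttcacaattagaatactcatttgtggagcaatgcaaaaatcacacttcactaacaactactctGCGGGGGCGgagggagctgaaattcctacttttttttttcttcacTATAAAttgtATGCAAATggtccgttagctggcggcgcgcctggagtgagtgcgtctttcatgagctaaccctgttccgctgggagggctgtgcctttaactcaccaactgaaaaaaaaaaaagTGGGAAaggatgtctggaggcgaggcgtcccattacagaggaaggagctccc
Ptprz1 (chr6:22875252-22875551, plus strand): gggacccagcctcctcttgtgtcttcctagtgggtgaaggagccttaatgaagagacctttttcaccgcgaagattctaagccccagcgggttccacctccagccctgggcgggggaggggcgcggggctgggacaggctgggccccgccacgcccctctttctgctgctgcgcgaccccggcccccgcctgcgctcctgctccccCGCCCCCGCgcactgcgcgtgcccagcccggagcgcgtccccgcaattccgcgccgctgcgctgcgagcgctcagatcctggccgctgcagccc

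The Nes window held none of these letters, which says nothing about the factors. The Tnc window held TATAAA at 126, ATGCAAAT at 116, TGGGAA at 2 and GCGGGGGCG at 171 bases before the start. It also held the reverse complement of TGGGAA at the first base of the window. Tnc has 2 RefSeq starts, and these positions depend on the one chosen. From the other, 79 bases away, TATAAA lies at 205, ATGCAAAT at 195, TGGGAA at 81 and GCGGGGGCG at 250 bases before the start. The match to the reverse complement of TGGGAA falls outside that window. The Ptprz1 window held 1 match to the Wt1 and EGR letters, on the minus strand of the window, and the Fabp7 window 1 match to TGGGAA. None of the searched matches shown overlaps another. Over all 9 genes the nearest windows with a match numbered 3 for TATAAA, 3 for TGGGAA, 1 for the octamer, 0 for ACAATG and 2 for GCGNGGGCG. Among 32851 RefSeq windows of this length the share with a match was 13.6% for TATAAA, 25.6% for TGGGAA, 1.74% for the octamer, 12.6% for ACAATG and 5.55% for GCGNGGGCG. A match is a description of letters and not a bound site.

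Levels can be compared between genes only per length, and CPM (counts scaled to a common library depth, TMM-adjusted) was divided by the kilobases of annotated exon. Fabp7 was the most abundant of the 9, with 354 to 459 CPM per kb over the 4 libraries, above 99.7% of tested genes. Vim followed with 195 to 218, and Nes with 72.6 to 127 CPM per kb. Ttyh1 had 29.7 to 37.9, Ptprz1 21.0 to 25.6, Slc1a3 10.8 to 14.3 and Prom1 8.59 to 10.5 CPM per kb. The lowest were Tnc, with 2.04 to 5.61, and Hopx, with 1.62 to 3.89 CPM per kb. The ranges of neighbours in this order did not overlap, except those of Tnc and Hopx. Exon length was taken over all annotated transcripts, so a gene with long rare exons appears lower.

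**Figure D1:**
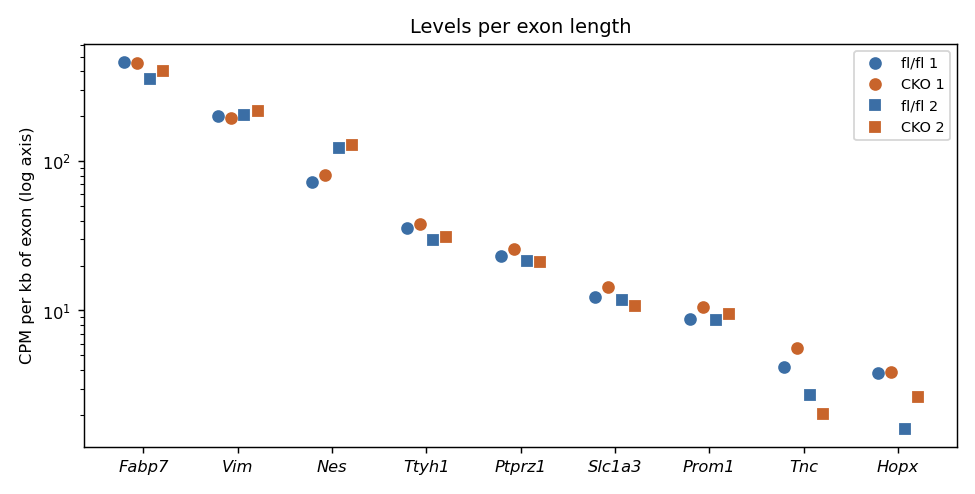
Level of each transcript in CPM per kilobase of annotated exon (log axis) in the 4 libraries; blue is Wt1fl/fl, orange Wt1CKO, circles number 1 and squares number 2. Fabp7 lies between 354 and 459 in every library and Hopx between 1.62 and 3.89.

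Genotype was compared first, since the title of the study names Wt1 and the neural progenitors of the developing brain. None of the 9 transcripts passed edgeR's quasi-likelihood test between Wt1CKO and Wt1fl/fl, where a call was a Benjamini-Hochberg adjusted p under 0.05. Of all tested genes 0.00628% passed. The log2 fold changes of Wt1CKO over Wt1fl/fl ran from 0.03 for Vim to 0.27 for Hopx, with a median of 0.08 against 0.01 over all tested genes. For 8 of the 9, all but Prom1, the sign turned when 1 library was left out, with values from -0.75 to 0.71 for Tnc and from -0.22 to 1.01 for Hopx. Unadjusted edgeR p-values ran from 0.122 to 0.787, with 0 of 9 under 0.05 against 1.56% of tested genes. The edgeR adjusted p of each was 0.999955. DESeq2 also called 0 of the 9. A p that misses the threshold does not show that the levels were alike.

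Prom1 (ENSMUSG00000029086, chromosome 5, 43993620 to 44102032, minus strand), which encodes the pentaspan protein prominin-1 of apical membrane protrusions, had the smallest genotype p of the 9. It had 63.3 and 61.6 CPM in Wt1fl/fl numbers 1 and 2, and 75.4 and 67.8 CPM in Wt1CKO numbers 1 and 2. Both Wt1CKO libraries were above both Wt1fl/fl libraries, as they were for 13.4% of tested genes. In either direction the genotypes did not overlap for 26.9% of tested genes. The means were 62.4 ± 1.18 and 71.6 ± 5.42 CPM (SD, n = 2 each), a log2 fold change of 0.20 (SE 0.0796). It was 0.12 without Wt1CKO number 1, and 0.12 to 0.27 over the fits without 1 library. The other 8 transcripts overlapped between the genotypes. Within a pair of same-numbered samples, 4 of the 9 (Nes, Prom1, Ttyh1 and Hopx) were higher in Wt1CKO in both pairs, which held for 27% of tested genes. The other 5 had opposite signs in the pairs, as had 47.2% of tested genes.

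The authors' deposited tables compare 1 library with 1 library. The authors' deposited table for pair 1 gives an adjusted p under 0.05 for 6 of the 9, and that for pair 2 for 5 of the 9, but neither marks any of them as significant. Over all genes listed, the authors' deposited tables give such an adjusted p for 23.3% in pair 1 and 19.2% in pair 2, and a share among genes of like abundance was not computed. For Nes the authors' deposited tables give a log2 ratio of 0.18 with an adjusted p of 1.88e-14 in pair 1, and 0.07 with 0.000233 in pair 2. The authors' deposited tables give Tnc as higher in Wt1CKO in pair 1, with a log2 ratio of 0.45, and lower in pair 2, with -0.40. Those p-values hold no spread between samples of a genotype.

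**Figure D2:**
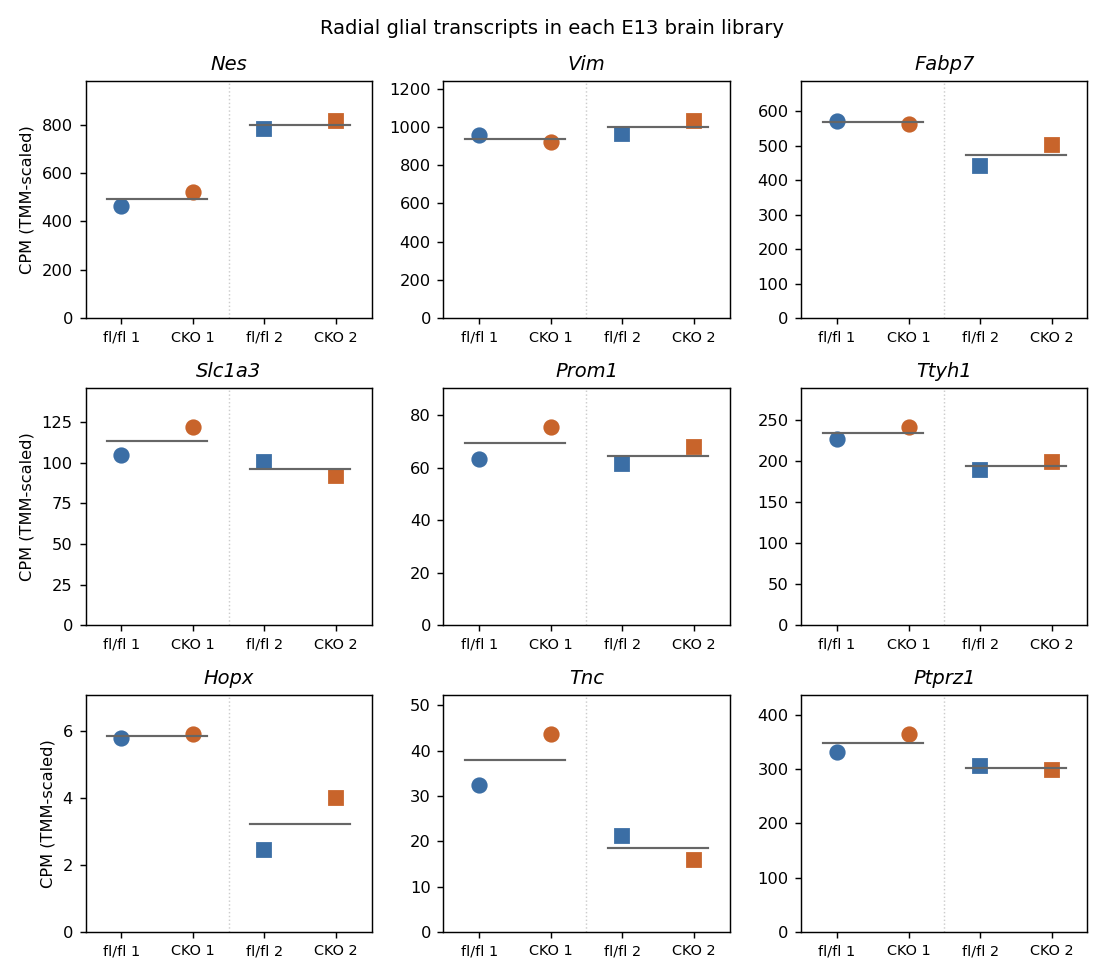
TMM-scaled CPM of each transcript in the 4 libraries (points; blue Wt1fl/fl, orange Wt1CKO, circles number 1, squares number 2), with a grey line at the mean of the 2 libraries of a number; every axis starts at 0. Nes is higher and Tnc lower in both number 2 libraries, while Vim differs little between libraries.

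Nes and Tnc differed between the sample numbers. Number 2 was compared with number 1, with 1 sample of each genotype on either side, and 2 of the 9 transcripts passed edgeR's test: Nes rose and Tnc fell in number 2. Of all tested genes 1.96% passed, 0.885% higher and 1.08% lower in number 2. Before adjustment, 6 of the 9 had an edgeR p under 0.05, as had 17.9% of tested genes. The libraries of number 2 lay outside those of number 1 for 8 of the 9, of which 2 were higher and 6 lower, as they did for 49.7% of tested genes (24.7% higher and 25% lower). In both genotypes 7 of the 9 were lower in number 2 (Fabp7, Slc1a3, Prom1, Ttyh1, Hopx, Tnc and Ptprz1) and 2 were higher (Nes and Vim). One direction in both genotypes was also found for 64.7% of tested genes. The median log2 fold change of the 9 was -0.23, against -0.0050 over all tested genes. In bulk tissue, fewer cells of a type and less RNA per cell cannot be told apart.

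Nes (ENSMUSG00000004891, chromosome 3, 87971078 to 87980451, plus strand) encodes nestin, the large intermediate filament protein of neural progenitors. It had 466 CPM in Wt1fl/fl number 1, 521 in Wt1CKO number 1, 782 in Wt1fl/fl number 2 and 817 in Wt1CKO number 2. Both number 2 libraries stood well above both number 1 libraries, and the genotypes were close within a number. The means were 493 ± 38.8 CPM in number 1 and 800 ± 25.1 CPM in number 2 (SD, n = 2 each), a 1.62-fold difference. On the log2 scale this was 0.70 (SE 0.0863, edgeR adjusted p 0.0141). It was 0.75 within Wt1fl/fl and 0.65 within Wt1CKO. Without Wt1fl/fl number 1, the library with the most ribosomal RNA, the log2 fold change was 0.62 and edgeR's adjusted p 0.0597. Over all alternatives the adjusted p ran from 8.84e-10 to 0.0597.

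Vim (ENSMUSG00000026728, chromosome 2, 13573927 to 13582826, plus strand) encodes vimentin, the filament protein with which nestin assembles. It had 956 and 961 CPM in Wt1fl/fl numbers 1 and 2, and 924 and 1034 CPM in Wt1CKO numbers 1 and 2. The 4 libraries were close, with means of 940 ± 22.7 and 997 ± 51.1 CPM in numbers 1 and 2 (SD, n = 2 each) and a log2 fold change of 0.09 (SE 0.0578, edgeR adjusted p 0.681). The ratio of Nes to Vim counts, which no library scaling can move, was 0.488 in Wt1fl/fl number 1 and 0.564 in Wt1CKO number 1. It was 0.813 in Wt1fl/fl number 2 and 0.791 in Wt1CKO number 2. Both number 2 ratios lay above both number 1 ratios.

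**Figure D3:**
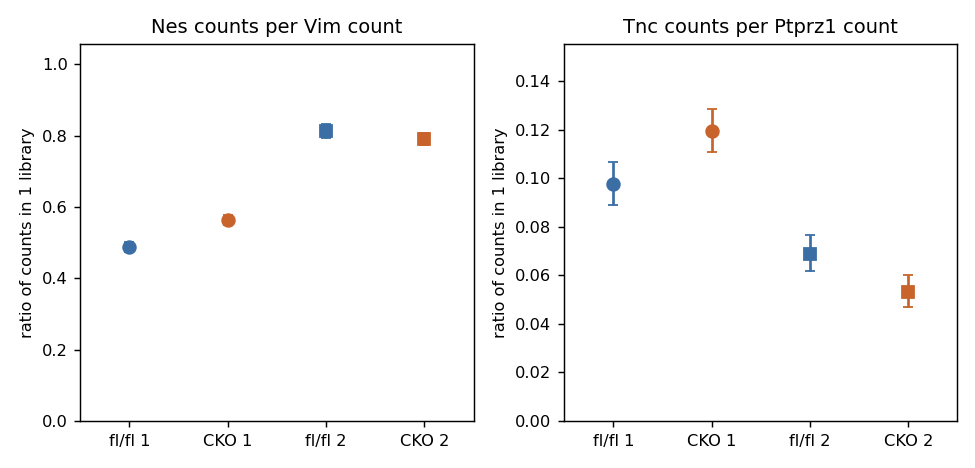
Ratio of Nes to Vim counts (left) and of Tnc to Ptprz1 counts (right) in each library, on axes from 0; bars are 95% intervals for counting error only, colours and shapes as genotype and number (blue Wt1fl/fl, orange Wt1CKO, circles 1, squares 2). The Nes ratio is 0.488 and 0.564 in number 1 and 0.813 and 0.791 in number 2, and the Tnc ratio is lower in number 2.

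Tnc (ENSMUSG00000028364, chromosome 4, 63959785 to 64047015, minus strand) encodes tenascin C, an extracellular matrix glycoprotein of progenitor zones. It had 32.3 CPM in Wt1fl/fl number 1, 43.6 in Wt1CKO number 1, 21.1 in Wt1fl/fl number 2 and 15.9 in Wt1CKO number 2. Both number 2 libraries were below both number 1 libraries, and the gap was wider within Wt1CKO. The means were 37.97 ± 7.99 and 18.5 ± 3.71 CPM in numbers 1 and 2 (SD, n = 2 each), 2.06-fold higher in number 1. On the log2 scale this was -1.04 for number 2 over number 1 (SE 0.297, edgeR adjusted p 0.0264). It was -0.61 within Wt1fl/fl and -1.45 within Wt1CKO, and whether these differ was not tested, as each rests on 1 library a side. Without Wt1CKO number 1, the library with almost no Xist, the log2 fold change was -0.81 and edgeR's adjusted p 0.150. Over all alternatives the adjusted p ran from 1.0e-05 to 0.150.

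Ptprz1 (ENSMUSG00000068748, chromosome 6, 22875502 to 23052916, plus strand) encodes a receptor tyrosine phosphatase of radial glia that binds tenascin C and pleiotrophin. It had 331 CPM in Wt1fl/fl number 1, 365 in Wt1CKO number 1, 307 in Wt1fl/fl number 2 and 299 in Wt1CKO number 2. The number 2 libraries were a little lower, with a log2 fold change of -0.20 (SE 0.0728, edgeR adjusted p 0.290) that did not pass. Tnc counts per Ptprz1 count were 0.0976 and 0.120 in number 1, in Wt1fl/fl and Wt1CKO, and 0.0688 and 0.0531 in number 2.

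Fabp7 (ENSMUSG00000019874, chromosome 10, 57784881 to 57788450, plus strand) encodes the brain lipid-binding protein, a fatty acid carrier of radial glia. It had 573 CPM in Wt1fl/fl number 1, 563 in Wt1CKO number 1, 442 in Wt1fl/fl number 2 and 502 in Wt1CKO number 2. The number 2 libraries were lower, with a log2 fold change of -0.27 (SE 0.0927) and an edgeR adjusted p of 0.204. Ttyh1 (ENSMUSG00000030428, chromosome 7, 4119408 to 4136708, plus strand), a membrane protein of the tweety family, had 227 and 241 CPM in Wt1fl/fl and Wt1CKO of number 1, and 189 and 199 CPM in number 2. Its log2 fold change of -0.27 (SE 0.0557, edgeR adjusted p 0.140) was nearly the same within Wt1fl/fl, -0.26, and within Wt1CKO, -0.28.

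Slc1a3 (ENSMUSG00000005360, chromosome 15, 8634124 to 8710764, minus strand) encodes the glutamate transporter GLAST. It had 105 CPM in Wt1fl/fl number 1, 122 in Wt1CKO number 1, 101 in Wt1fl/fl number 2 and 92.0 in Wt1CKO number 2. Wt1CKO number 1 was the highest, and the log2 fold change between numbers was -0.23 (SE 0.128, edgeR adjusted p 0.276). Prom1, given above, was the only one of the 9 whose libraries overlapped between the numbers, with a log2 fold change of -0.10 (SE 0.144).

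Hopx (ENSMUSG00000059325, chromosome 5, 77086988 to 77115121, minus strand) encodes a small homeodomain protein that does not bind DNA and marks outer radial glia in primate cortex. It was scarce, with 93 counts in Wt1fl/fl number 1, 105 in Wt1CKO number 1, 42 in Wt1fl/fl number 2 and 69 in Wt1CKO number 2. The number 2 libraries were lower at 2.45 and 4.01 CPM against 5.79 and 5.90, with a log2 fold change of -0.85 (SE 0.341). It did not pass (edgeR adjusted p 0.146). Over the fits without 1 library the log2 fold change of Hopx ran from -1.25 to -0.54.

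Whether the libraries kept strand is not given in the sources used here, and 4 of the 9 genes are overlapped by a gene on the other strand. Reads of such partners cannot be told apart without strand. These partners had few counts, with 51 to 85 for D030047H15Rik and 42 to 62 for 9430041J12Rik at Ttyh1, 25 to 31 for Gm16401 at Prom1, 1 to 7 for 8030451A03Rik at Tnc, and 1 in each number 1 library for Hopxos at Hopx.

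**Figure D4:**
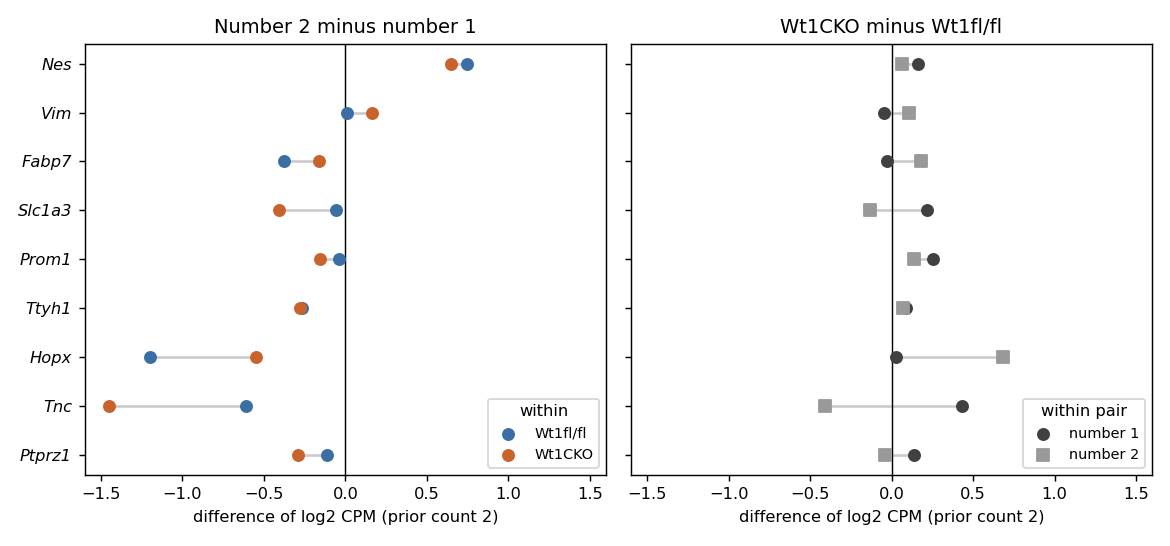
Differences of log2 CPM for each transcript between libraries: number 2 minus number 1 within each genotype (left), and Wt1CKO minus Wt1fl/fl within each number (right); each point is 1 library minus 1 library. Nes lies at 0.75 and 0.65 and Tnc at -0.61 and -1.45 on the left, and 5 of the 9 transcripts have points on both sides of 0 on the right.

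The median profile of the 9, each centred on its own mean log2 CPM over the 4 libraries, was 0.03 and 0.17 in Wt1fl/fl and Wt1CKO of number 1, and -0.12 and -0.10 in number 2. Ptprz1 was nearest to it, at a Euclidean distance of 0.0436, and Nes farthest, at 0.907. Outside the 9, the genes with at least 10 CPM nearest to this profile over the 4 libraries were Cir1, Hsp90aa1, Kdsr, Psmc6 and Cdc40, at distances of 0.0139 to 0.0260.

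Relatives of the 9 and other genes of radial glia were described from fixed lists. Of 15 transcription factors of radial glia, 1 passed between the numbers, the Notch target Hes5, which rose in number 2, and the list had a median log2 fold change of 0.14. Hes5 had 12.9 and 10.5 CPM in Wt1fl/fl and Wt1CKO of number 1 and 22.5 and 25.8 CPM in number 2, a log2 fold change of 1.05 (SE 0.179, edgeR adjusted p 0.0180). The SOXB1 factor Sox3 had a log2 fold change of 0.39 (edgeR adjusted p 0.0725), and the LIM homeobox factor Lhx2 one of -0.47 (edgeR adjusted p 0.0769), and neither passed. Of 22 other radial glial transcripts, 2 passed, both lower in number 2, and the list had a median log2 fold change of 0.04. In both genotypes 9 of the 22 were higher in number 2 and 6 were lower. Aldoc, a glycolytic aldolase of radial glia and astrocytes, had 137 and 165 CPM in number 1 and 37.2 and 63.6 CPM in number 2 (log2 fold change -1.58, SE 0.408, edgeR adjusted p 0.00990). Mfge8, a secreted glycoprotein, had 71.1 and 82.5 CPM against 47.3 and 40.0 (log2 fold change -0.82, SE 0.162, edgeR adjusted p 0.0157). The receptor Notch1 (0.36) and the RNA-binding protein Msi2 (0.45) did not pass on the same scale. Without Wt1CKO number 1 the calls of Hes5, Aldoc and Mfge8 were lost, with edgeR adjusted p of 0.108, 0.0597 and 0.0853.

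Of 9 tested intermediate filament and lamin genes 1 passed, the neuronal neurofilament gene Nefm, with 59.5 and 52.4 CPM in number 1 and 90.0 and 87.1 CPM in number 2 (log2 fold change 0.66, SE 0.0935, edgeR adjusted p 0.0162). The nuclear lamina gene Lmnb1, at 0.38, and the linker gene Plec, at 0.67, missed with edgeR adjusted p of 0.0670 and 0.0863. Synm, which encodes synemin, another partner of vimentin, had a log2 fold change of -0.11. The astrocyte filament gene Gfap had 2 to 5 counts a library and was not tested. Without Wt1CKO number 1 the edgeR adjusted p of Nefm was 0.0873.

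Among 14 ligands and receptors of tenascin and Ptprz1, 1 passed, with a list median of -0.12. Ptn, which encodes the Ptprz1 ligand pleiotrophin, had 423 and 416 CPM in Wt1fl/fl and Wt1CKO of number 1 and 288 and 300 CPM in number 2. Its log2 fold change was -0.51 (SE 0.0321, edgeR adjusted p 0.0264), and its call was lost without Wt1fl/fl number 1 (0.0803), without Wt1fl/fl number 2 (0.0568) and without Wt1CKO number 1 (0.0982). Cntn1, a contactin that binds Ptprz1, had a log2 fold change of -0.68 and missed (edgeR adjusted p 0.0594). The related ligand Mdk (midkine) had one of 0.08. Bcan, a matrix proteoglycan, had 44.8 CPM in Wt1CKO number 1 against 9.23 to 15.3 in the others.

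Of 12 tested family relatives 1 passed, the neuronal glutamate transporter gene Slc1a1, with 14.01 and 18.4 CPM in number 1 and 8.71 and 7.78 CPM in number 2. Its log2 fold change was -0.98 (SE 0.210, edgeR adjusted p 0.0366), and edgeR's adjusted p was 0.206 without Wt1CKO number 1, 0.0550 without Wt1fl/fl number 1 and 0.0580 with no filter on low counts. The astrocyte transporter gene Slc1a2 had a log2 fold change of 0.08, and the relatives Fabp5 and Ttyh3 had -0.17 each. None of 16 genes of the apical junction and polarity complexes passed, with a median of 0.01, and none of 7 receptors of the basal endfoot, with a median of 0.13. Cdh2, the N-cadherin of the apical junction, had 337 to 371 CPM over the libraries. Between the genotypes 0 genes passed in each of these lists.

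**Figure D5:**
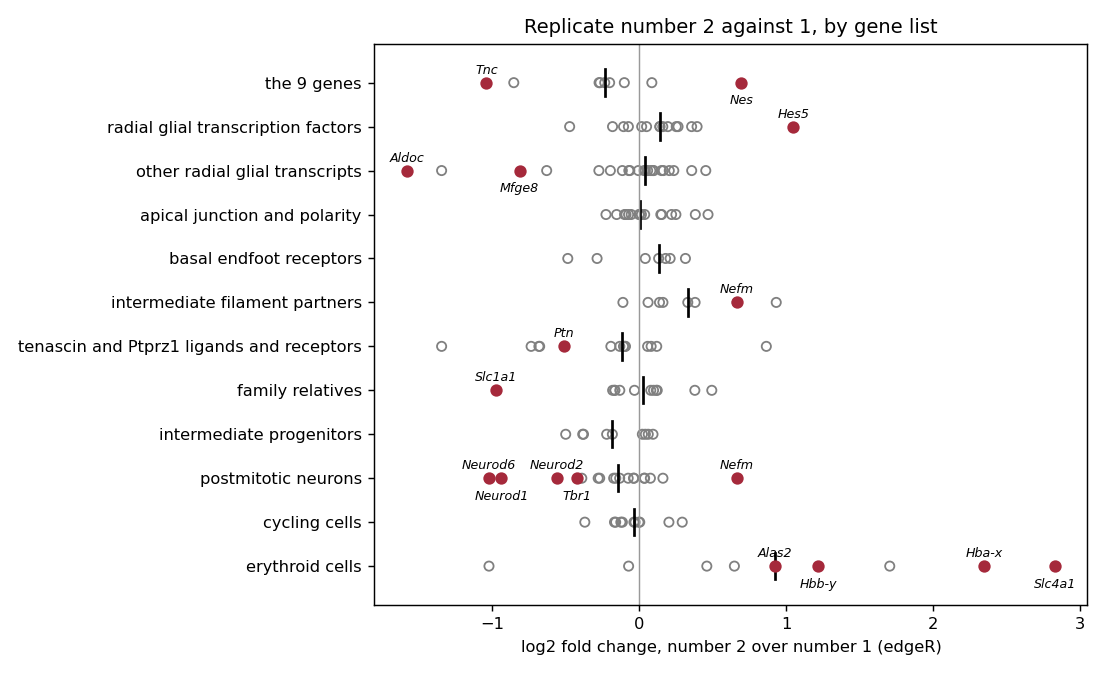
edgeR log2 fold changes of number 2 over number 1 for the tested genes of each list (rows); filled red points with names passed at an adjusted p under 0.05, open points did not, and black ticks are list medians. Nes and Tnc passed on opposite sides of 0, and in the erythroid row the 4 genes that passed lie above 0.

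Markers of other cells moved with the sample number too. Of 9 erythroid genes 4 rose in number 2: the embryonic globin genes Hba-x and Hbb-y, the haem synthesis gene Alas2 and the anion exchanger gene Slc4a1. Their log2 fold changes were 2.35, 1.22, 0.93 and 2.83. The summed erythroid level was 965 and 912 CPM in number 1 and 1841 and 1756 CPM in number 2. The adult globin gene Hbb-bs, named after its values were seen, went the other way without passing, with 177 and 205 CPM in number 1 and 130 and 58.3 CPM in number 2 (log2 fold change -1.02, edgeR adjusted p 0.0985). Hba-a1, Hba-a2 and Hbb-bt, also adult globin genes, were higher in number 2 in both genotypes. Their log2 fold changes were 0.65, 1.71 and 0.46, and none of them passed. Globin genes are close relatives, so reads can be shared between them. Of 18 genes of postmitotic neurons, 4 fell in number 2 (Neurod1, Neurod2, Neurod6 and Tbr1) and 1 rose (Nefm). Neurod6 had 601 and 762 CPM in number 1 and 306 and 364 CPM in number 2. The call of Tbr1, named after its value was seen, was lost without any 1 of the libraries, and that of Alas2 without either number 1 library. Neurod2 was also lost without either number 1 library. The summed neuronal level was 8840 and 8553 CPM in number 1 and 7948 and 7448 CPM in number 2.

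No gene passed among 9 of intermediate progenitors, 11 of cycling cells, 10 of endothelial and pericyte cells, 10 tested of meninges and mesenchyme, 7 tested of microglia and 5 tested of choroid plexus. Endothelial and pericyte genes, from cells that also make Nes and Vim, summed to 171 to 185 CPM in the 4 libraries. The sum covers genes that moved in opposite directions. In both genotypes 5 of the 10 were higher in number 2, such as Flt1 (log2 fold change 0.37), and 3 were lower, such as Cldn5 (-0.30). Meningeal and mesenchymal genes summed to 151 and 169 CPM in number 1 and 211 and 184 CPM in number 2. Most of each sum was Fn1, with 109 and 128 CPM in number 1 and 137 and 145 CPM in number 2. Of the 10 tested genes, 5 were higher in number 2 in both genotypes and 1 was lower in both. Within Wt1fl/fl, Col1a1 had 8.90 and 12.8 CPM in numbers 1 and 2, and Col1a2 had 8.90 and 19.3 CPM. Within Wt1CKO, Col1a1 had 5.28 and 4.70 CPM in numbers 1 and 2, and Col1a2 had 7.31 and 10.2 CPM. Libraries stood apart in some choroid plexus genes. Ttr, the transthyretin gene of that tissue, had 0.249 CPM in Wt1fl/fl number 1, 40.3 in Wt1CKO number 1, 12.4 in Wt1fl/fl number 2 and 0.987 in Wt1CKO number 2, and Clic6 had 0.0623, 3.32, 3.62 and 0.407 CPM in the same order. Ttr and Clic6 were thus higher in Wt1CKO in pair 1 and lower in pair 2, as was Sostdc1 of the same list. Its tested genes Otx2 and Aqp1 were lower in Wt1CKO in both pairs. The log2 differences in pairs 1 and 2 were -0.50 and -0.39 for Otx2, and -0.13 and -0.53 for Aqp1. Tnc, Slc1a3 and Ptprz1 had the directions of Ttr between the genotypes. Within Wt1fl/fl, Ttr was higher in number 2, and Tnc, Slc1a3 and Ptprz1 were lower. Within Wt1CKO, Ttr and these transcripts were lower in number 2. The part of such cells in the values of Tnc, Slc1a3 and Ptprz1 was not tested. The oligodendrocyte and astrocyte list had 6 tested genes, of which Olig2 rose, with a call lost without Wt1fl/fl number 1, Wt1fl/fl number 2 or Wt1CKO number 1. Among markers too scarce to be tested, the mesenchymal gene Twist1 had 2 to 21 counts a library and the leukocyte gene Ptprc 8 to 18. The part of these cells in the values of Nes and Tnc was not tested.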

How the data were processed

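Poly(A) RNA of 4 brain samples was sequenced. The submitters' processing notes name HTSeq 0.6.0, TopHat2 2.0.12, Bowtie2 2.2.3 and mm9, but positions in the tables matched GENCODE vM21 (GRCm38) for 92.1% of 22368 gene IDs found there, and for all 9 genes, so they are given on GRCm38. Per the file headers each table gives read counts for Ensembl genes in a pair of libraries. Deposited CPM values are these counts over a library total, with 0.5 in place of 0, the deposited fold ratio and log2 columns follow from them, and the test behind the authors' deposited p-values is not given in the sources used here. Only values quoted from the authors' deposited tables use these columns.

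Genes present in both tables entered edgeR 4.0.16 (R 4.3.3, filterByExpr with a minimum count of 10, TMM, quasi-likelihood F test, Benjamini-Hochberg over 15933 genes, threshold 0.05), once by genotype and once by sample number, with no other term. Printed CPM are TMM-scaled. SEs come from the SDs of log2 CPM (prior count 2), with n = 2 per group, and are imprecise. Exon lengths are from GENCODE vM21. The 9 genes and the lists were chosen with earlier results of these data known. Named genes outside the 9 were, per list, up to 4 by p between numbers and up to 2 by p between genotypes, of which only some are printed, and the 5 genes nearest to the median profile. Others (Tbr1, Hbb-bs, Hba-a2, Synm, Mdk, Cdh2, Gfap, Sostdc1, Twist1, Ptprc, Xist, CT010467.1 and the antisense partners) were named for their role or after their values were seen. Alternatives were other scaling and filters, DESeq2 1.42.0, leaving out each library, a block, and leaving out haemoglobin and mitochondrial genes. The correlation of same-numbered deviations is given with the limits. Because reads carry no molecular identifiers they are not independent molecules, and intervals cover counting error only.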

Additional observations from a re-analysis of the deposited data

Results flagged for a closer look

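The genotype difference had opposite signs in the 2 pairs of same-numbered samples for 5 of the 9 transcripts, which 47.2% of tested genes also showed. The difference between the pairs was not tested, as each value is 1 library minus 1 library. In log2 CPM, Wt1CKO minus Wt1fl/fl was 0.43 in pair 1 and -0.41 in pair 2 for Tnc. It was 0.22 and -0.13 for Slc1a3, and 0.14 and -0.039 for Ptprz1. The order was the other way for Vim, with -0.049 and 0.10, and for Fabp7, with -0.026 and 0.18.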

How the results depend on the processing

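Between the genotypes 0 of the 9 transcripts passed in the analysis above and in each alternative run. The count over all genes was 1, and 5 with DESeq2, 42 with the replicate number as a block, and 3 to 73 when 1 library was left out. Leaving out a library turned the direction of genotype log2 fold changes, none of which was called: they ran from -0.26 to 0.52 for Nes, -0.053 to 0.11 for Vim, -0.11 to 0.27 for Fabp7, -0.16 to 0.25 for Slc1a3, -0.069 to 0.22 for Ttyh1, -0.22 to 1.01 for Hopx, -0.75 to 0.71 for Tnc and -0.10 to 0.20 for Ptprz1. Prom1 kept its sign, with 0.12 to 0.27. Between the numbers 313 genes passed, and 197 with no filter on low counts, 578 with DESeq2, 1138 with genotype added as a term (the replicate block) and 71 to 940 when 1 library was left out. Of the 9 transcripts, 1 to 3 passed when 1 library was left out, and Nes and Tnc passed in each of the other alternatives. The direction turned without Wt1CKO number 1 for Prom1, whose values without 1 library ran from -0.22 to 0.031, and for Slc1a2, from -0.11 to 0.29. With 1 sample left on a side, that sample is assumed to vary like the other group; the cause of these changes was not tested. Same-numbered samples share only a number, and their deviations from the genotype means correlated at 0.33 across 14538 genes with at least 1 CPM, which are not independent replicates. Among the 9, depth limits Hopx most, with 42 to 105 counts a library.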
